A study of Homo sapiens with 5 samples.

Results

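Interleukin-1 (IL-1) ligands, their receptors and the components of the inflammasome were followed in MDA-MB-231 cells, an established human breast cancer line of the basal type without estrogen receptor, after treatment with fluvastatin. The group holds 10 of the 20046 genes named on the array (IL1A, IL1B, IL1RN, IL1R1, IL1RAP, IL18, IL33, CASP1, PYCARD and NLRP3) and was chosen by gene symbol in the platform annotation. These genes had 20 of the 47231 probes on the array, and a probe was kept if its detection p-value was under 0.05 on at least 2 independent arrays, which left 14 of the 20 and 21986 of all probes. The detection p-values are thus the measured values that chose the probes, and a probe detected in a single group had to differ in order to be kept.

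The study hybridised biotin-labelled cRNA to Illumina bead arrays to learn which transcripts differ between malignant breast cells with and without the drug. Control cultures received water for 24 h and treated cultures received 10 µM fluvastatin, a statin that blocks the mevalonate pathway, for 24 h. Control replicate 2 equalled the mean of control replicates 1 and 3 in 47231 of 47231 probes and was left out, so that control replicates 1 and 3 were compared with fluvastatin replicates 1 and 2. All groups come from 1 cell line grown in serum, and the labels do not say whether replicates were separate cultures, so p-values measure the spread between these samples. The labels' treatment text for the fluvastatin samples repeats that of the mock control, and the groups follow the titles and characteristics.

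Between 43.0% and 46.9% of all probes were detected per array, and the median intensity ran from 72.7 to 81.7. The 2 fluvastatin arrays differed more from each other (SD of the log2 difference over the probes kept 0.428) than the 2 controls did (0.259). Of the class markers of the line, VIM, CD44, EGFR, KRT8, KRT18 and KRT19 were detected on all 4 arrays by at least 1 probe each. ESR1, PGR and CDH1 were detected on none. ERBB2 was detected on all 4 arrays by 1 of its 3 probes (ILMN_2352131) and on none by the others. In what follows, levels are log2 intensities after background correction, an offset of 16 and quantile normalization, and a fold change is the difference of such values, which understates the change of dim probes. Levels of different probes are not compared with each other.

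IL-1α and IL-1β are the founding cytokines of the family. Both bind the receptor IL1R1, which then recruits the accessory chain IL1RAP and signals through MYD88 and IRAK kinases to NF-kB and MAP kinases. IL1RN encodes the receptor antagonist, which occupies IL1R1 without recruiting the accessory chain. IL-1β and IL-18 are made as inactive precursors and are cut by caspase-1 (CASP1). Caspase-1 is activated on an inflammasome, in which a sensor such as NLRP3 joins the adaptor ASC, the product of PYCARD. IL-1α and IL-33 act as alarmins released from damaged cells. Carcinoma cells can make IL-1 themselves, although the system is mostly studied in myeloid cells.

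With fluvastatin, the transcripts of both IL-1 ligands were several-fold higher, and that of IL1R1 rose less. The PYCARD probes disagreed, and only ILMN_1698766 was called higher. The probes of the sensor NLRP3 fell below detection, not all of them past the threshold, and were kept through the control arrays alone. The levels of CASP1, IL1RAP and IL18 did not pass the test, and IL33 was not detected on any array. IL1RN differed widely between the 2 fluvastatin arrays.

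**Figure D1:**
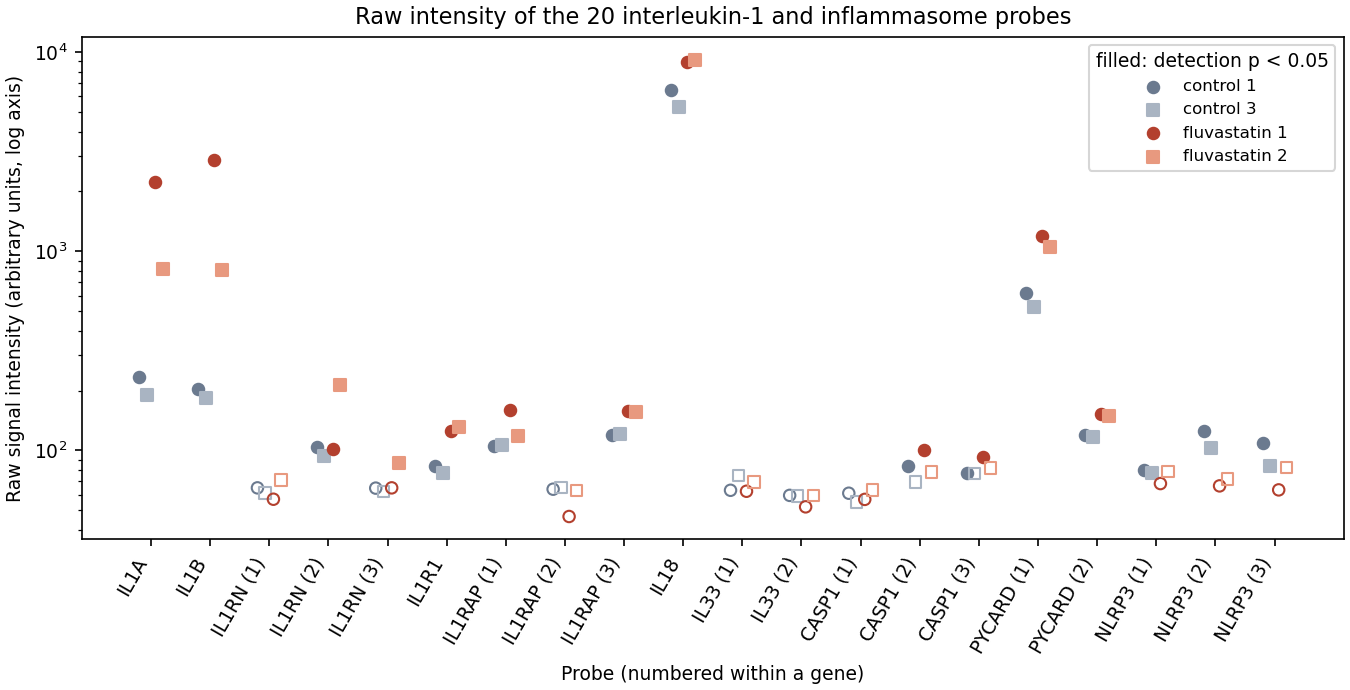
Raw signal intensity (arbitrary units, log axis) of each of the 20 probes on each of the 4 independent arrays, with 1 point per array, circles for the lower-numbered array of a group and squares for the other. Filled points have a detection p-value under 0.05. IL1A and IL1B lie far above the controls on both fluvastatin arrays and highest on fluvastatin replicate 1, and the NLRP3 points are filled in controls and open with fluvastatin.

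The start regions of IL1A and IL1B are shown because these neighbouring genes gave the highest rises of the group. Both lie on the minus strand of chromosome 2, and each sequence runs from 250 bases before to 50 bases after the annotated gene start (RefSeq, GRCh38.p14). Capitals mark matches on either strand to TATAAA, to TGANTCA (a core bound by AP-1 factors), to TTNNGNAAT (bound by C/EBP factors) or to the NF-kB consensus.
IL1A, chr2:112784444-112784743: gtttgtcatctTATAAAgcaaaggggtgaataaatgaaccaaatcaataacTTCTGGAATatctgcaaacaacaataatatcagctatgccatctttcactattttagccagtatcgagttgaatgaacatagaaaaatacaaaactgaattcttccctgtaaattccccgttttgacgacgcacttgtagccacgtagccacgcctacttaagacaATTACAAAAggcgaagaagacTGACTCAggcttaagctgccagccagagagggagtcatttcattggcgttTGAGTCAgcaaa
IL1B, chr2:112836730-112837029: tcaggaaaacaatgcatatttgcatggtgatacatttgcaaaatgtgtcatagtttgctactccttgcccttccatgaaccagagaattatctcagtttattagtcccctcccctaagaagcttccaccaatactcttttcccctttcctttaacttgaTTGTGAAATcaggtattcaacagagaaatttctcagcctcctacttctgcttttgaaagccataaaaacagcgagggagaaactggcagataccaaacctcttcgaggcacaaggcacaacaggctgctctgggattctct

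The IL1A window held 2 matches to TGANTCA, at -12 to -6 and at 39 to 45 from the start, and the IL1B window held 0. TGANTCA occurs in 7.71% of the 35116 promoter windows of the same length. TTNNGNAAT occurred 2 times in the IL1A window and 1 time in that of IL1B (at -91 to -83), and 11% of all windows hold it. TATAAA was found at -239 to -234 in IL1A and not in IL1B (11.5% of all windows). The NF-kB consensus had 0 matches in either window and is found in 7.73% of all windows. A second annotated start of IL1A shares the TGANTCA pair. No match says only that these letters are not in this window, and the motifs overlapped nowhere in these sequences.

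IL1A, with 1 probe on the array, had raw intensities of 234.0 and 189.9 in control replicates 1 and 3, and of 2241.5 and 820.5 in fluvastatin replicates 1 and 2. Its log2 levels were 7.57 and 7.60 in controls and 10.88 and 9.49 with fluvastatin. Both treated arrays lay above both controls, and the controls were nearly equal. The mean rose from 7.59 ± 0.021 to 10.19 ± 0.98 (SD, n = 2 each), by 2.60 ± 0.44 on the log2 scale (SE of the fit; adjusted p = 0.0202). The rise was 3.30 in fluvastatin replicate 1 and 1.90 in replicate 2. Of all probes kept, 0.587% had a wider gap between the fluvastatin arrays than the 1.39 of IL1A. The fold change of IL1A was therefore 3.30 without fluvastatin replicate 2 and 1.93 without fluvastatin replicate 1.

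IL1B, also with 1 probe, had raw intensities of 202.5 and 183.2 in the controls and of 2873.2 and 807.1 in fluvastatin replicates 1 and 2. Its log2 levels were 7.31 and 7.53 in controls and 11.24 and 9.47 with fluvastatin. The groups did not overlap, and fluvastatin replicate 1 was again the higher treated array. The mean rose from 7.42 ± 0.15 to 10.35 ± 1.25 (SD, n = 2 each), by 2.93 ± 0.55 on the log2 scale (SE of the fit; adjusted p = 0.0247). Only 0.0728% of the probes kept had a higher fold change than IL1B and 0.132% had a higher one than IL1A. The IL1B rise was 3.81 in fluvastatin replicate 1 and 2.04 in replicate 2, and leaving out either array gave 2.07 and 3.82. Without control replicate 1 its adjusted p was 0.0509. Without a filter on dim probes, where more probes were tested, the adjusted p was 0.0542 for IL1A and 0.0690 for IL1B.

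**Figure D2:**
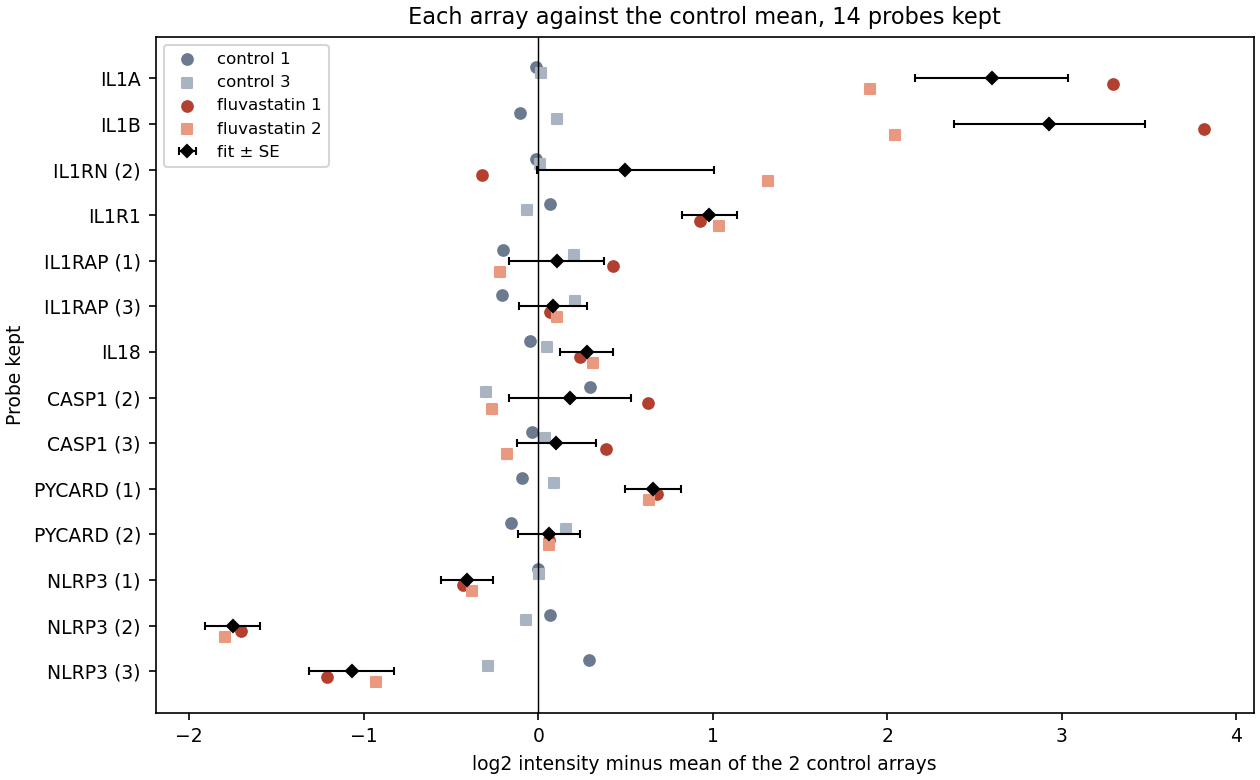
Log2 intensity minus the mean of the 2 control arrays for each array and each of the 14 probes kept, with the fitted fold change and its SE as black diamonds and bars. Probes are numbered within a gene as in the plot of raw intensities. The fluvastatin arrays sit together for IL1R1, IL18, PYCARD and NLRP3 and apart for IL1A, IL1B and IL1RN.

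IL1RN had 3 probes, of which 1 was kept (ILMN_1774874). Its log2 levels were 5.85 and 5.87 in controls, 5.54 in fluvastatin replicate 1 and 7.18 in replicate 2. Thus 1 treated array lay below both controls and the other well above them, in the opposite order to IL1A and IL1B. The fitted fold change of 0.50 ± 0.51 did not pass (adjusted p = 0.522). Fitted on fluvastatin replicate 2 alone it was 1.31, and on replicate 1 alone it was -0.31. Each of these fits holds 1 treated array and so no spread within the treated group. A second IL1RN probe (ILMN_1806249) did not meet the detection rule. It was detected on 1 array, fluvastatin replicate 2, with a detection value of 0.0416, against 0.325 to 0.677 on the others. Its raw intensity was 86.4 there against 62.1 to 64.9 on the others. The median intensity of that array was also the highest, at 81.7 against 72.7 to 74.2. This reading near background does not bear out the kept probe. The remaining IL1RN probe was detected on 0 arrays. Among the probes kept, 0.241% had a wider gap between the fluvastatin arrays than the -1.64 (replicate 1 minus replicate 2) of IL1RN.

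The signalling receptor IL1R1 had raw intensities of 83.1 and 77.3 in controls and 125.5 and 131.6 with fluvastatin. Its log2 levels were 5.15 and 5.02 in controls and 6.01 and 6.12 with fluvastatin. The treated arrays were alike and lay above both controls. The control values were close to the detection limit, and the treated values were dim but clear of it. The mean rose from 5.09 ± 0.093 to 6.07 ± 0.074 (SD, n = 2 each), by 0.98 ± 0.16 on the log2 scale (adjusted p = 0.0181). As for any dim probe, the size rests on the background correction: it was 0.41 with the log2 values the authors deposited and 0.48 without background correction, past the threshold in both. Without control replicate 1 the adjusted p was 0.0999 and without control replicate 3 it was 0.143.

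The accessory chain gene IL1RAP had 3 probes, of which 2 were kept. The first (ILMN_1686884) was at 5.88 and 6.29 in controls and at 6.51 and 5.87 with fluvastatin, and the groups overlapped. Its fold change was 0.10 ± 0.27 (adjusted p = 0.811). The second (ILMN_2357062) was at 6.22 and 6.64 in controls and at 6.49 and 6.53 with fluvastatin, a fold change of 0.09 ± 0.19 (adjusted p = 0.781). Here both treated arrays fell between the controls. The remaining IL1RAP probe was detected on 0 arrays.

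IL18, whose product is another substrate of caspase-1, was bright on every array. Its raw intensities were 6449.5 and 5293.6 in controls and 8896.2 and 9192.9 with fluvastatin. Its log2 levels in fluvastatin replicates 1 and 2 were 0.24 and 0.31 above the control mean of 12.69 ± 0.068 (SD, n = 2), and the groups did not overlap. The difference of 0.28 ± 0.15 did not pass (adjusted p = 0.252). IL33 had 2 probes, both detected on 0 arrays, with raw intensities from 52.1 to 75.1, and it was not tested.

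NLRP3, the inflammasome sensor, had 3 probes, each detected on both controls and on neither fluvastatin array. They were kept through the control arrays alone, so that their direction was in part set by the detection rule. Of these, ILMN_1712026 had raw intensities of 124.7 and 103.0 in controls and of 66.4 and 71.9 with fluvastatin, where it was not well above background. Its log2 levels were 6.32 and 6.18 in controls and 4.55 and 4.46 with fluvastatin. The groups lay far apart and each was narrow. On the scale of the reported background correction, the bound set by the lowest signal among detected probes makes it at least 2.62-fold lower with fluvastatin. The measured means were 6.25 ± 0.097 and 4.50 ± 0.064, with an adjusted p of 0.00717. The log2 fold change of this probe ran from -1.92 to -0.79 over the 10 other settings in which it was tested. Settings that kept the detection rule add no separate support for its direction. The fit to arrays scaled by their medians adds none either, since its p-values followed the size of the fold change alone. Where dim probes were not removed before testing, limma gave ILMN_1712026 an adjusted p of 0.0154. That fit used the same array values of this probe. Both treated values lay below detection, so their narrow spread need not be that of a detected transcript. This p therefore adds no separate support.

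The second NLRP3 probe (ILMN_2310896) was at 5.98 and 5.4 in controls and at 4.48 and 4.76 with fluvastatin. It was at least 1.77-fold lower by the same bound (adjusted p = 0.0379), and 6 of the 10 other settings left it short of the threshold, among them each omission of a single array (adjusted p from 0.0547 to 0.199). The third (ILMN_1696933) was at 5.02 and 5.03 in controls and at 4.59 and 4.64 with fluvastatin, at least 1.12-fold lower, and did not pass (adjusted p = 0.115). All 3 NLRP3 probes were thus lower on both treated arrays, from levels that were dim to begin with. The size of the difference, and with it each bound, rests on the background correction. For ILMN_1712026 the log2 fold change was -0.79 with the authors' deposited log2 values, -0.89 without background correction and -0.96 with an offset of 50, each smaller than the stated bound. For ILMN_2310896 these values were -0.46, -0.51 and -0.55.

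PYCARD, which encodes the adaptor ASC, had 2 probes, detected on all 4 arrays. The first (ILMN_1698766) had raw intensities of 621.2 and 523.2 in controls and of 1194.9 and 1054.4 with fluvastatin. Its log2 levels were 9.16 and 9.34 in controls and 9.93 and 9.88 with fluvastatin, and the treated arrays lay close together above both controls. The mean rose from 9.25 ± 0.13 to 9.91 ± 0.031 (SD, n = 2 each), by 0.66 ± 0.16 on the log2 scale (adjusted p = 0.0446). The second (ILMN_2398274) was at 6.21 and 6.52 in controls and at 6.43 on each fluvastatin array. Its fold change was 0.06 ± 0.18 (adjusted p = 0.826), so the PYCARD rise rests on 1 of 2 probes. The call of the first was lost without either control and without fluvastatin replicate 1 (adjusted p from 0.0629 to 0.325).

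CASP1, the protease itself, had 3 probes, of which 2 passed the rule with the smallest number of arrays that it allows. They were detected on control replicate 1 and fluvastatin replicate 1 and on neither of the other arrays. The first (ILMN_2326509) was at 5.18 and 4.59 in controls and at 5.51 and 4.62 with fluvastatin (fold change 0.18 ± 0.35, adjusted p = 0.745). The second (ILMN_2326512) was at 4.89 and 4.97 in controls and at 5.32 and 4.75 with fluvastatin (0.10 ± 0.23, adjusted p = 0.775). Both sets of values overlapped. ILMN_2326512 stood just outside detection in control replicate 3, with a detection value of 0.0533, and just inside it in control replicate 1, with 0.0455. The third CASP1 probe was detected on 0 arrays. Without fluvastatin replicate 1 the 2 fold changes were -0.24 and -0.16.

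Over all probes kept, limma called 16.9%, 8.64% higher and 8.29% lower with fluvastatin at an adjusted p under 0.05. Among the 14 probes of the IL-1 and inflammasome genes, 4 were higher (28.6%), 1 each of IL1A, IL1B, IL1R1 and PYCARD, 2 were lower (14.3%), both of NLRP3, and 8 did not pass. Since the genes were chosen with these results known, the counts are a description. The NLRP3 probes were kept through the control arrays alone, so the direction of the 2 lower calls was in part set by the detection rule. The same holds for the 3 lower probes among those whose groups did not overlap. Groups did not overlap for 8 of the 14 (57.1%), 5 of them higher and 3 lower. That lies below the 64.7% of all probes kept, of which 32.8% were higher and 31.8% lower. With the fit to arrays scaled by their medians, 4 were higher and 2 lower as before. That scaling moved the median fold change of all probes kept from 0.0022 to 0.19. It also moved the share of higher calls from 51.0% to 77.7%. In that fit the adjusted p of the member probes followed the size of the fold change alone, down to 6.28e-19 for IL1A. Its counts therefore do not weigh the spread between replicates and add no support.

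**Figure D3:**
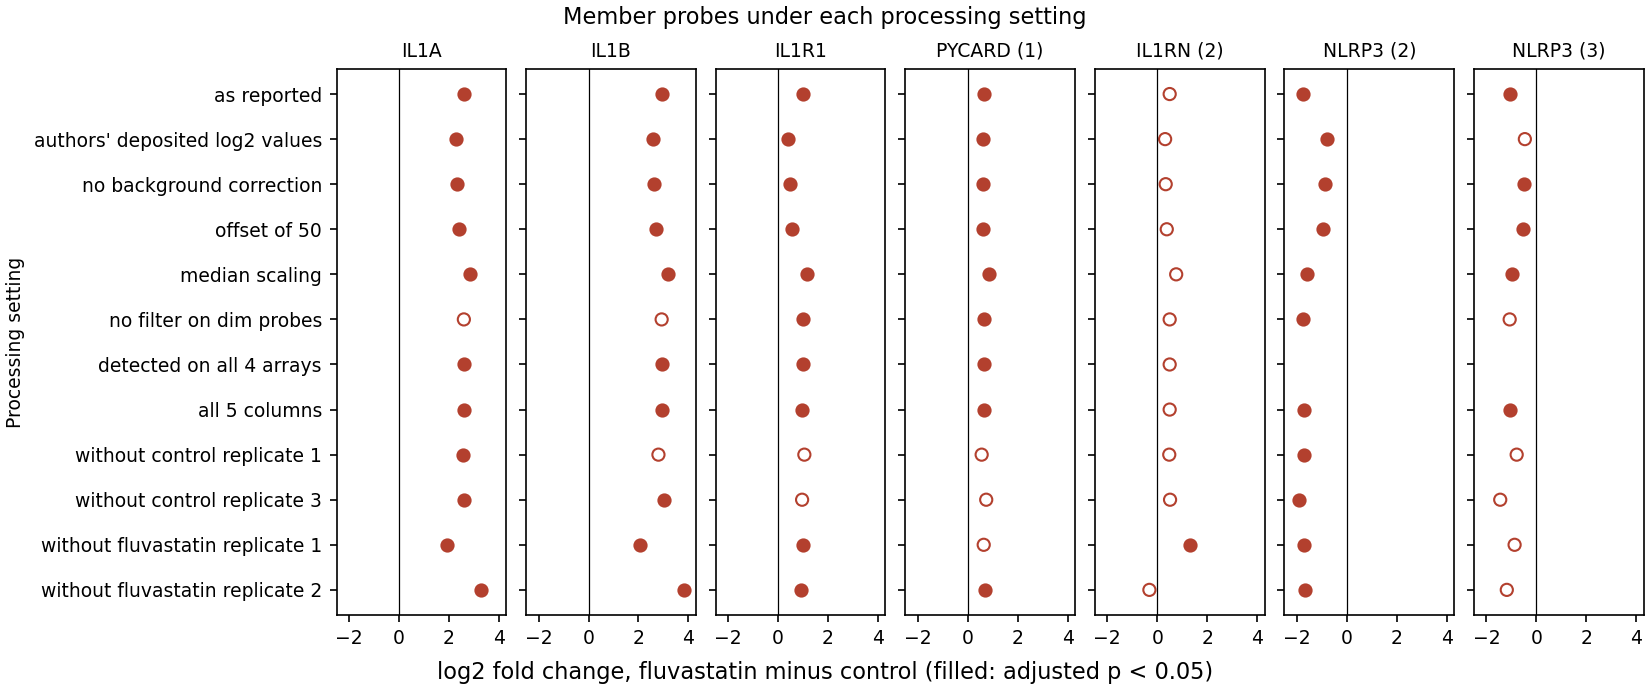
Log2 fold change (fluvastatin minus control) of 7 member probes under the reported processing and 11 other settings, filled where the adjusted p was under 0.05. IL1A stays between 1.93 and 3.30 and ILMN_1712026 of NLRP3, shown as NLRP3 (2), between -1.92 and -0.79, while IL1RN changes sign without fluvastatin replicate 2. The NLRP3 probes have no point where detection on all 4 arrays was required. Under median scaling the filling followed the size of the fold change alone.

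Other genes of the IL-1 system were taken from lists and are given by the kept probe of each gene with the highest mean intensity. Over 12080 genes, 20.1% passed, 10.5% higher and 9.65% lower, with a median log2 fold change of 0.013. Of the other ligands, receptors and binding proteins of the family, all 15 had named probes and 3 were measurable. These were IL18BP (0.15 ± 0.19, and -0.21 ± 0.18 by another probe), which neutralises IL-18, the inhibitory receptor SIGIRR (0.01 ± 0.17) and IL1RAPL1 (-0.15 ± 0.16). By limma 0 of the 3 passed, and 0 had an unadjusted p under 0.05, which 36% of all probes kept had. That 36%, here and below, is over probes rather than genes. Adjusted calls were more frequent over genes (20.1%) than over probes (16.9%). The decoy receptor IL1R2 and the IL-18 receptor chain IL18R1 were detected on 0 arrays, and the IL-33 receptor IL1RL1 on 1 array at most.

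In signal transduction downstream of the receptor, 2 of 19 measured genes rose, 1 fell and 16 did not pass, with a median of 0.13. The share called was 15.8%, below the 20.1% of all genes. By limma 9 of the 19 had an unadjusted p under 0.05, against 36% of all probes kept. The kinase gene IRAK2 rose from 8.97 and 8.99 to 10.34 and 10.25, a log2 fold change of 1.32 ± 0.15 (adjusted p = 0.00994). IRAK3, which encodes an inhibitory IRAK, rose by 1.03 ± 0.24 (adjusted p = 0.0415), while its other probe was at 0.58 (adjusted p = 0.207). The IκB kinase gene CHUK fell by 0.75 ± 0.15 (adjusted p = 0.0302). The adaptor gene MYD88 was at 0.63 ± 0.22 (adjusted p = 0.0990). IRAK4 had no probe under that symbol.

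Among inflammasome sensors, caspases, regulators and gasdermins, 5 of 15 measured genes rose, 0 fell and 10 did not pass, with a median of 0.55. By limma 9 of the 15 had an unadjusted p under 0.05, against 36% of all probes kept. The share past the adjusted threshold was 33.3%, against 20.1% of all genes. The probes of CASP4, an inflammatory caspase, disagreed: that chosen to stand for the gene was at -0.09 ± 0.23 (adjusted p = 0.814), and the other kept probes were called lower, ILMN_1774585 at -0.79 (adjusted p = 0.0304) and ILMN_1778059 at -0.76 (adjusted p = 0.0290). Like those of NLRP3, these 2 CASP4 probes were detected on both controls and on neither fluvastatin array. Their direction was thus in part set by the detection rule. TXNIP, whose product binds thioredoxin, rose from 10.53 and 10.62 to 12.35 and 12.21, a fold change of 1.71 ± 0.16 (adjusted p = 0.00734). The sensor gene NLRP1 rose by 1.18 ± 0.22 (adjusted p = 0.0245), and that of the DNA sensor AIM2 by 0.86 ± 0.17 (adjusted p = 0.0297). SERPINB1, an inhibitor of neutrophil proteases, rose by 0.98 ± 0.17 (adjusted p = 0.0212). NLRP1 and AIM2 were thus higher where NLRP3 was lower, a contrast between genes that was not itself tested. The fifth was NLRX1 (0.87 ± 0.20, adjusted p = 0.0398), named although it falls outside the 4 with the smallest p. The pore-forming effector gene GSDMD was at 0.59 ± 0.16 (adjusted p = 0.0631).

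Of the proteases and carriers linked to processing or release of the ligands, 4 of 6 measured genes rose and 0 fell, with a median of 0.99. By limma 4 of the 6 had an unadjusted p under 0.05, against 36% of all probes kept. The share past the adjusted threshold was 66.7%, against 20.1% of all genes. The calpain genes CAPN1 (1.06 ± 0.18) and CAPNS1 (0.92 ± 0.18) encode subunits of the protease that cuts pro-IL-1α. S100A13, whose product is a carrier in IL-1α release, rose by 1.30 ± 0.19, and 2 of its 4 kept probes passed. CTSB, the lysosomal cathepsin B, rose by 1.15 ± 0.16. Adjusted p ran from 0.0134 (CTSB) to 0.0283 (CAPNS1) for these genes. The other measured genes did not pass: the calpain gene CAPN2 (0.05 ± 0.15, adjusted p = 0.852) and ANXA2 (0.31 ± 0.16, adjusted p = 0.212).

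Of the genes that IL-1 induces, 7 of 21 measured rose, 0 fell and 14 did not pass, and the median was 0.99. By limma 11 of the 21 had an unadjusted p under 0.05, against 36% of all probes kept. The share past the adjusted threshold was 33.3%, against 20.1% of all genes. PTGES, the terminal synthase of prostaglandin E, rose by 2.51 ± 0.36 (adjusted p = 0.0150). The mitochondrial dismutase SOD2 rose by 1.51 ± 0.27 (adjusted p = 0.0223), while its other kept probe was at 1.39 (adjusted p = 0.0768), and the siderophore binder LCN2 rose by 1.02 ± 0.19 (adjusted p = 0.0241). IRAK2, listed here too, had the smallest p. The monocyte chemokine CCL2, named after its values were seen, rose by 2.20 ± 0.47 (adjusted p = 0.0323). IL6 was at 0.35 ± 0.36 (adjusted p = 0.532). The probes of CXCL8 disagreed: that chosen to stand for the gene was at 0.68 ± 0.29 (adjusted p = 0.156) and the other rose by 1.43 ± 0.32 (adjusted p = 0.0362). TNF was detected on 0 arrays and PTGS2 on 1 array at most.

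The higher level of IL1A and IL1B in fluvastatin replicate 1 had a counterpart in these IL-1-induced genes, of which 19 of 21 were higher in replicate 1 than in replicate 2, as against 52.8% of all genes. Their median difference from the control mean was 1.29 in replicate 1 and 0.52 in replicate 2. In the signal transduction list 14 of 19 genes were higher in replicate 1, with medians of 0.11 and 0.13 and a median gap per gene of 0.10 (replicate 1 minus replicate 2). In the inflammasome list 9 of 15 were higher in replicate 1, with medians of 0.33 and 0.41 and a median gap per gene of 0.23, and in the list induced by IL-1 the median gap was 1.11. The part of RNA quality, culture or hybridisation in this gap was not tested.

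**Figure D4:**
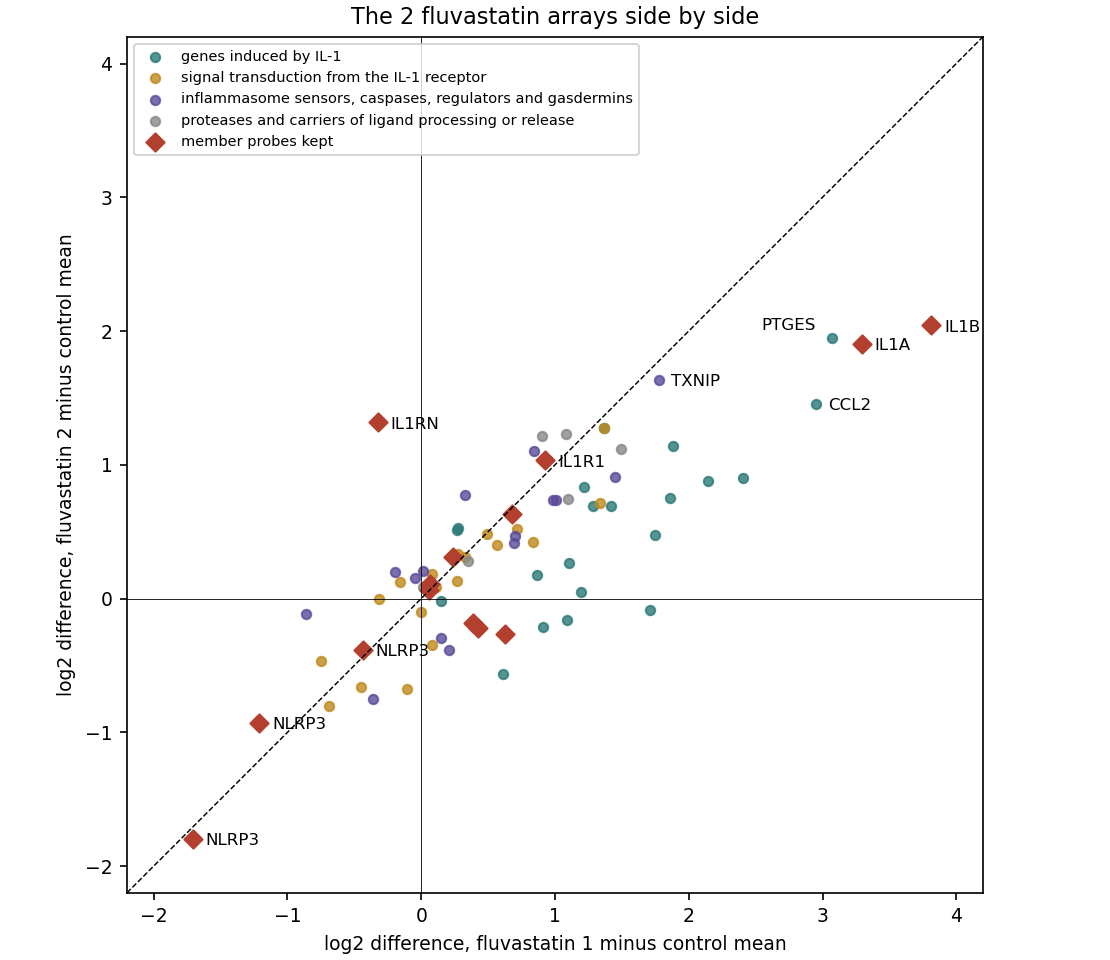
Log2 difference from the control mean in fluvastatin replicate 1 (horizontal) and in fluvastatin replicate 2 (vertical), with 1 point per gene of 4 pathway lists and red diamonds for the 14 member probes kept. The dashed line marks equal differences. IL1A, IL1B and most genes induced by IL-1 lie below it, NLRP3 and IL1R1 lie near it, and IL1RN lies above it.

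The genes whose 4 array values were most like those of IL1A, by Euclidean distance between log2 values centred on each probe's mean over 15872 probes, were TNFSF10 (distance 0.210), PTGES (0.210) and KYNU (0.347). For IL1B they were TNFSF10 (0.405), IL1A (0.444) and KYNU (0.534). Only 4 arrays underlie this likeness, and it is given as a description. TNFSF10, which encodes the death ligand TRAIL, was higher by 3.39 in fluvastatin replicate 1 and by 1.71 in replicate 2. KYNU, an enzyme of tryptophan breakdown, was higher by 3.38 and 1.59.

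Leukocytes are the other cells in which IL-1 is mostly studied. Of 15 such markers with named probes, 9 were detected on 0 arrays, among them PTPRC, ITGAM, SPI1 and TYROBP. The 5 measurable markers were CD14, CD68, CSF1R, LYZ and AIF1, of which 0 passed by limma with the probe chosen to stand for the gene and 2 had an unadjusted p under 0.05 (36% of all probes kept). Another CD68 probe, ILMN_2359907, was called higher (0.69 ± 0.15, adjusted p = 0.0372), against 0.45 ± 0.22 (adjusted p = 0.203) for the chosen one. The summed level of the 5 markers was 10.88 and 10.92 (log2) in controls, 11.01 in fluvastatin replicate 1 and 11.46 in replicate 2, a sum made up mostly of CD68, which was at 10.66 and 11.20 there. In fluvastatin replicates 1 and 2, CD14 was at 7.54 and 7.10 and LYZ at 5.51 and 4.97, and 2 of the 5 markers were higher in replicate 1 and 3 in replicate 2. Their part in the result was not tested. Of 5 fibroblast markers, 3 were measurable and 0 passed by limma (0 at an unadjusted p under 0.05).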

How the data were processed

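Per the labels' protocols, total RNA of MDA-MB-231 cultures was converted to biotinylated cRNA for Illumina arrays, and the submitters' processing notes list R 3.1.0. The deposited table holds 1 intensity per probe and sample, not normalized, and per the file headers a detection p-value beside each. The authors' second table holds log2 values with nearly equal distributions. Scanner software, normalization package and genome build are not given in the sources used here. All per-sample columns were mapped (0 left over).

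The 4 independent arrays were normalized in R 4.3.3 by the neqc function of limma 3.58.1 (normexp background from the detection p-values, offset 16, quantile normalization, log2) and compared with its lmFit and eBayes (two-sided), p-values being adjusted over 21986 probes by Benjamini-Hochberg. The fit had 2 residual and 3.72 prior degrees of freedom, and the number of arrays limits the precision. Where a group had no array with detection, the fold is a bound. It sets the mean of the bright group against a floor averaged over the dim group's arrays, namely the dimmest detected signal of the array unless the probe itself was brighter. Gene symbols came from the platform annotation (30113 probes with 1 symbol, 8 with several, 17110 with none) and 0 changed when matched by gene identifier to the RefSeq table of GRCh38.p14. Both IL1A and IL1B were found in the RefSeq promoter table. Steps were tested on simulated data.

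The members, lists and tests were chosen with earlier results of these data known. All 10 members are named with every probe. From each list up to 4 genes past the threshold with the smallest p are named, together with IL1R2, IL1RL1, IL18BP, SIGIRR, MYD88, IRAK4, IL18R1 and GSDMD where measured. IL6, CXCL8, CCL2, CASP4, NLRX1, TNF, PTGS2, IL1RAPL1, CAPN2 and ANXA2 were added after their values were seen. Alternatives changed the background correction, offset, scaling, filter on dim probes and arrays used.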

Additional observations from a re-analysis of the deposited data

How the results depend on the processing

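Under the 11 other settings, 124 of 149 fold changes of the 14 probes kept had the same direction and the same side of the threshold as reported, 14 were no longer past it, 3 passed newly and 8 changed sign. IL1A, IL1B, IL1R1 and ILMN_1698766 of PYCARD kept their direction in every setting. All NLRP3 probes also kept theirs wherever they were tested. Those probes had passed the filter through the control arrays alone, so their direction was in part set by the detection rule. One of the settings, scaling by medians, gave p-values that did not weigh the spread between replicates. Without a filter on dim probes, 2757 of all 47231 probes were called. With the authors' log2 values 4855 of 21986 were called, and 3970 with detection required on all 4 arrays. The member counts that follow are to be read beside these. Over all probes, 3722 were called as reported, 8927 with all 5 deposited columns and 433 to 7046 leaving out 1 array, where the lone array of a group is assumed to vary like the others. Higher member probes numbered 4 as reported, 2 without a filter on dim probes and 1 to 4 leaving out 1 array (1 without control replicate 1, 2 without control replicate 3). Lower member probes numbered 2 as reported, 1 with the authors' log2 values, 1 without a filter, 1 on leaving out any array, and 0 with detection required on all 4 arrays, where the NLRP3 probes were not tested. Changes of sign were seen on leaving out 1 array in probes that did not pass: the fold change ranged from -0.21 to 0.42 and from -0.12 to 0.30 for the 2 IL1RAP probes, from -0.24 to 0.61 and from -0.16 to 0.38 for the 2 CASP1 probes, from -0.31 to 1.31 for IL1RN and from -0.095 to 0.22 for ILMN_2398274 of PYCARD. The lone arrays behind the lost calls leave 1 residual degree of freedom among samples. IL18 (0.27, adjusted p = 0.0462) and ILMN_1696933 of NLRP3 (-0.40, adjusted p = 0.0130) passed with all 5 columns, which count a mean as a control. The remaining new pass was IL1RN without fluvastatin replicate 1 (1.31), a fit with 1 treated array and no spread within that group. No paired analysis was possible because the independent control and fluvastatin arrays share only replicate number 1. CASP1, IL1R1, NLRP3 and the IL1RAP probes lie near the background, where small changes cannot be resolved.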

Other observations

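The order of genes on the chromosomes (RefSeq) shows how few members of the 2 IL-1 gene clusters of chromosome 2 were above background in these cells. The ligand cluster holds 9 protein-coding genes from IL1A to IL1RN, all with named probes, and 3 of them had a kept probe: IL1A and IL1B, which are direct neighbours, and IL1RN at the other end. Between them, IL36A, IL36B, IL36G, IL36RN and IL1F10 were detected on 0 arrays and IL37 on 1 array at most. The gene beside IL1A outside the cluster, CKAP2L, had a log2 fold change of -0.30 ± 0.16 (adjusted p = 0.231). PSD4, beside IL1RN, was at 0.58 ± 0.17 (adjusted p = 0.0674).

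In the receptor cluster, IL1R1 was the only 1 of 6 genes with a kept probe. IL1R2, IL1RL2, IL18R1 and IL18RAP were detected on 0 arrays and IL1RL1 on 1 array at most. The flanking gene MAP4K4 rose by 1.08 ± 0.17 (adjusted p = 0.0179) and SLC9A4, on the other side, fell by 0.84 ± 0.19 (adjusted p = 0.0382). In the caspase cluster of chromosome 11, CASP4 and CASP1 were measurable among 5 genes. The CASP4 probe with the highest mean intensity, detected on all 4 arrays, was at -0.09 ± 0.23 (adjusted p = 0.814). The other kept CASP4 probes were called lower (-0.79 and -0.76, adjusted p = 0.0304 and 0.0290). Both were kept through the control arrays alone, so their direction was in part set by the detection rule. CASP5 and CARD18 were detected on 0 arrays.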
